A study of Mus musculus with 8 samples.

Results

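The members described here are 1881 probes of a custom Agilent array that read RNA from places outside the span of mouse chromosome 7 for which the array was built. The array holds 53834 distinct probes that are not controls. Of these, 50496 lie in the tiled span around Ube3a (positions are in build mm9) and 3338 lie elsewhere in the genome. A probe outside the span became a member if at least 0.5 of its spots were well above background, by the mark of the scanner software, on each of the 6 total RNA arrays. That mark is a measured value of the same arrays, so the fact that members were detected with total RNA in every genotype is not a result. RNA present in 1 genotype alone could not become a member, and neither could RNA that fell below detection on any of these arrays. Likeness between genotypes over the members is thus in part fixed by their choice.

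All samples were of newborn C57BL/6 animals (postnatal day 0), and the tissue was cerebral cortex. A maternal deletion (del s-u/+, n = 1) lacked the stretch between Snrpn and Ube3a on the chromosome inherited from the mother. A paternal deletion (del +/s-u, n = 1) lacked it on the other chromosome. The double deletion (n = 2) joined the maternal deletion to a deletion of the Snrpn promoter on the paternal chromosome, named 0.9 or 4.8, which the series describes as depleting the Ube3a antisense RNA. For both of these samples the title names one promoter deletion and the genotype label the other, so they are called replicates 1 and 2 and no value is assigned to either promoter deletion. Wild type (WT, n = 2) had no deletion, and the series describes a wild-type littermate for each single deletion. PolyA RNA (n = 2) was purified from the RNA of the same WT samples. The cortex holds many cell types. The number of animals behind a sample is not stated, so p-values measure the spread between these samples, which may be technical. The 2 double-deletion samples carried different promoter deletions, so the spread of that pair may also hold a difference in genotype. That spread enters the test of every genotype. In bulk tissue, fewer cells of a type and less RNA per cell cannot be told apart.

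Ube3a encodes an E3 ubiquitin ligase, and in neurons its paternal copy is silenced while a long antisense RNA that starts near Snrpn runs across it. Probes elsewhere in the genome show whether RNA from other chromosomes differs between the genotypes and how far 2 wild types differ from each other. Selection on oligo(dT) keeps RNA with a polyA tail, mostly mature messenger RNA, and depletes RNA without one. The files name each probe and its position but pair it with no gene, so members are given by probe name and position, and the label of the tissue could not be checked against markers.

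The median red intensity of the members was 44 and 43.2 with polyA RNA, beside a background of 34, and 116 to 139 with total RNA, beside a background of 36 to 38. No member spot was saturated, and 0 to 5 of 4166 member spots per array carried an outlier mark. The 4 arrays of the single deletions and of WT total RNA lay in row 1 of the slide, and those of the double deletion and of polyA RNA in row 2, per the array positions in the file headers. Slide row and double deletion cannot be told apart, and neither can slide row and polyA against total RNA of WT. Probes whose names begin with RC read the minus strand: over 2513 positions of the tiled span where the antisense RNA runs, minus-strand probes had median intensities of 7777.5 in WT 1 and 6460 in WT 2, and plus-strand probes 138 and 118.

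The members fall into 3 kinds by how the array samples their surroundings. A first kind lay in 4 blocks tiled on both strands. The block on chromosome 16 (chr16:32607451-32634685) had 214 probe pairs, that on X (chrX:103380517-103400552) 150, that on chromosome 6 (chr6:125109984-125117497) 68 and that on chromosome 5 (chr5:143663009-143670364) 54. Another 100 pairs were scattered along chromosome 7. The remaining 995 members stood alone on one strand, and 555 members were printed in at least 5 spots per array. The blocks differed in which strand was read. On chromosome 16, 207 of 214 plus-strand probes were members, against 88 of 214 minus-strand probes, and on X the counts were 141 and 94 of 150. On chromosome 5 the minus strand was the brighter one, with a median WT intensity over all its probes of 577.25 and 564.5, against 147.25 and 149.25 on the plus strand. On chromosome 6 the strands were nearer to each other, with 309.5 and 282 on the minus strand and 202.5 and 185.5 on the plus strand.

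Detection set the edge of the membership at low signal. The 105 dimmest members had mean intensities of 43.7 to 51.1 over the 6 total RNA arrays. Another 105 probes outside the span were well above background on 5 of the 6 arrays, and theirs were 40.5 to 224 with a median of 47.1. At the other end, the brightest members were 3 minus-strand probes of the chromosome 5 block. RC_A_67_P05773799 (chr5:143664917-143664964) had 50765 in the maternal deletion, 43159.5 in the paternal deletion, 46087 and 50327 in the double deletion, and 41157 and 40657 in WT. It was brightest on every total RNA array. The next, RC_A_67_P01240501, had 41188 in the maternal deletion, 33895 in the paternal deletion, 20019 and 23872 in the double deletion, and 40489 and 30513 in WT, so that the double deletion lay below all other samples.

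The first question is whether RNA away from the tiled span differed between genotypes by more than the WT samples differed from each other. Levels here are log2 of the background-corrected red intensity minus the median of the members on the same array, with 50 added by the correction, which understates differences of dim probes. Over the members, the median absolute log2 difference was 0.10 between the maternal deletion and WT 1 and 0.13 between it and WT 2. It was 0.10 and 0.09 for the paternal deletion. The double deletion differed more, by 0.15 and 0.17 for replicate 1 and by 0.18 and 0.21 for replicate 2. WT 1 and WT 2 differed by 0.10, and the 2 double-deletion samples by 0.17.

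Set over the difference of the WT pair, the ratio averaged 1.14 ± 0.20 for the maternal deletion (SD over 2 pairs), 0.896 ± 0.0731 for the paternal deletion (SD over 2 pairs) and 1.75 ± 0.226 for the double deletion (SD over 4 pairs). Pairs that share an array are not independent, and these ratios carry no test. The members of the single deletions lay about as close to WT as the WT samples to each other, and those of the double deletion lay farther from WT and from each other. Probes that fell below detection in any sample are not members, so such losses are left out here, for the WT pair too. With quantile normalization the paternal deletion had a ratio of 3.21 and the double deletion 2.01, so this order depends on the scaling. The same order held for the 555 members with at least 5 spots, where the WT pair differed by 0.08 and the maternal, paternal and double deletions by 0.08 to 0.10, 0.07 and 0.12 to 0.20. Spots of one probe on one total RNA array had a median SD of 0.11 to 0.14 on the log2 scale.

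**Figure D1:**
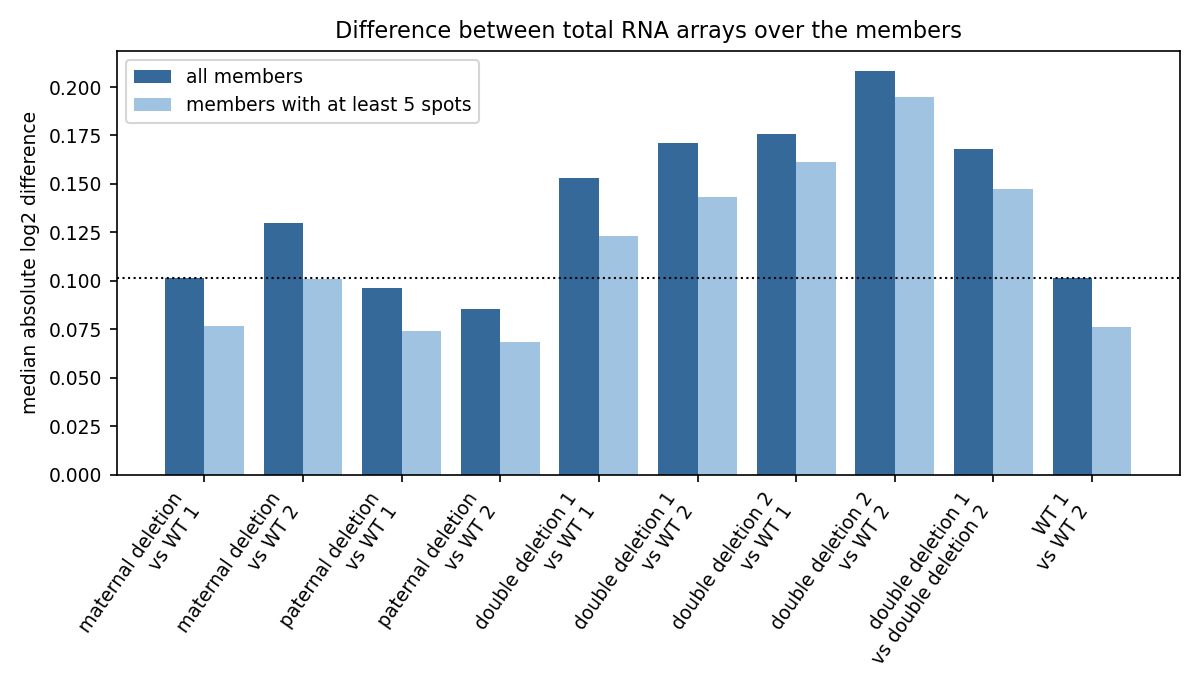
Median absolute log2 difference between pairs of total RNA arrays over all members (dark bars) and over members with at least 5 spots (light bars); the dotted line marks the WT pair. The single deletions stand at 0.09 to 0.13 against WT and the double deletion at 0.15 to 0.21, beside 0.10 for WT 1 against WT 2.

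The difference also depended on brightness. With the members divided by level into 4 equal sets, double-deletion replicate 2 differed from WT 2 by 0.16 in the dimmest set and by 0.29 in the brightest. The WT pair differed by 0.07 in the dimmest set and by 0.15 in the brightest. Differences past 1 on the log2 scale were few in every pair: 16 and 24 members for the maternal deletion against WT 1 and WT 2, 16 and 11 for the paternal deletion, 20 to 37 for the double deletion, and 12 between the WT samples.

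The maternal deletion asks what losing the maternal copy of the span does to RNA elsewhere. No member passed the test: limma called 0 of 1877 tested members at an adjusted p under 0.05, as it called 0% of all 49384 tested probes, and 45 members had an unadjusted p under 0.05 (2.4%, against 12.7% of all probes). The median change of the members was -0.04, and 16 members changed by more than 1 (0.852%, against 6.67% of all probes), 15 upward and 1 downward (5.96% and 0.713% of all probes). This fit takes its spread from the WT pair and the double-deletion pair together. With the spread of the WT pair alone, 15 members were called (7.13% of all tested probes). The count was the same without double-deletion replicate 1 and without replicate 2, where 7.27% and 7.2% of all probes were called.

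The largest differences of the maternal deletion lay in probes outside the blocks. A_67_P04725014 (chr2:144608768-144608827) had an intensity of 688 in the maternal deletion, 66 in the paternal deletion, 70 and 58 in the double deletion, and 67 and 60.5 in WT. A_67_P07334144 (chr11:48622144-48622203) had 629 in the maternal deletion, 61.5 in the paternal deletion, 78 and 53 in the double deletion, and 70.5 and 65.5 in WT. In both, the maternal deletion stood alone and the other genotypes overlapped. Their log2 changes were 2.89 (SE 0.15) and 2.66 (SE 0.20), with an adjusted p of 0.108 for each in limma. Each was printed in 1 spot, and the double deletion, which carries the same maternal deletion, did not share the change.

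Other members of this kind were A_67_P13825513 in the chromosome 5 block, with 615.5 in the maternal deletion against 150.5 and 164 in WT, and A_67_P01427618 on chromosome 6, with 410 against 107 and 92. A_67_P01692129 on chromosome 8 had 189.5 in the maternal deletion against 48 and 48.5 in WT. In the chromosome 6 block 2 members were high in the maternal deletion and, less so, in the double deletion. A_67_P06057443 (chr6:125113079-125113127) had 613 in the maternal deletion, 347.5 and 300.5 in the double deletion, and 200 and 190 in WT. RC_A_67_P06057457 (chr6:125117052-125117096) had 1681 in the maternal deletion, 1164 and 1126 in the double deletion, and 716 and 653 in WT. The paternal deletion, at 176 and 572, was below both WT samples at these 2 probes. One named member was lower: A_67_P04298653 on chromosome 1 had 48 in the maternal deletion, 48.5 and 96 in the double deletion, and 150.5 and 137 in WT.

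The paternal deletion lacks the same stretch on the chromosome that transcribes the antisense RNA. Again 0 of 1877 members passed (0% of all tested probes), and 15 had an unadjusted p under 0.05 (0.799%, against 18.8% of all probes). The median change was 0.00, and 9 members changed by more than 1 (0.479%, against 14.5% of all probes), 4 upward and 5 downward (1.68% and 12.8% of all probes). With the spread of the WT pair alone 8 members were called, against 17% of all probes. Without double-deletion replicate 1 or replicate 2 the counts were 10 and 8, against 17.2% and 17.1% of all probes. Of the 4 upward changes, all lay in the X block, as described below.

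Downward, RC_A_67_P03164032 (chr16:32617172-32617231), a minus-strand probe of the chromosome 16 block, had 64.5 in the paternal deletion, 968.5 in the maternal deletion, 102 and 320 in the double deletion, and 851 and 732 in WT. A_67_P14444158 (chr6:125116637-125116681) had 229 in the paternal deletion, 2155.5 in the maternal deletion, 237.5 and 1118 in the double deletion, and 2207.5 and 1705.5 in WT. Both were low in the paternal deletion and in double-deletion replicate 1, intermediate in replicate 2, and alike in the maternal deletion and WT. Their changes in the paternal deletion were -3.26 (SE 0.73) and -2.92 (SE 1.03), with an adjusted p of 0.125 and 0.284 in limma. Smaller upward differences outside X were seen at A_67_P00987272 on chromosome 4, with 98 in the paternal deletion against 50 and 48.5 in WT, and at A_53_P147140 on chromosome 18, with 776 against 465 and 504.5. A_67_P03164027 in the chromosome 16 block had 141 in the paternal deletion and 129 in the maternal deletion, against 80 and 85 in WT.

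The double deletion asks the same with the paternal promoter and the maternal span both lost. Here 8 of 1877 members passed (0.426%, against 8.79% of all tested probes), 5 higher and 3 lower (5.86% and 2.93% of all probes), and 121 had an unadjusted p under 0.05 (6.45%, against 27.4%). The median change was -0.02, and 15 changed by more than 1 (0.799%, against 20% of all probes), 5 upward and 10 downward (6.34% and 13.7% of all probes). The adjustment ran over all tested probes, and 4329 of the 46967 in the tiled span were called. How small a p a member needs to pass thus depends on the span. An adjustment over the members alone was not run, so 8 calls against 0 in the single deletions is not a result about the members. None of the 8 was printed in more than 1 spot, and 0 of the 555 members with at least 5 spots passed, 15 of them with an unadjusted p under 0.05. Without WT 1, and likewise without WT 2, limma called 0 members and 0% of all probes, with 32 and 25 members at an unadjusted p under 0.05. With the double-deletion samples as separate groups, which leaves out the difference between them, 94 passed, against 31.3% of all probes. Without replicate 1 or replicate 2 the counts were 95 and 72, against 26.2% and 33.7% of all probes. The array position described above moves with this comparison, and its part in the result was not tested.

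Away from the X cluster, 3 members rose and 3 fell in the double deletion. A_67_P00031431 (chr1:26782011-26782070) had 236 and 267 in the double deletion, 80 in the maternal deletion, 76 in the paternal deletion, and 81 and 78.5 in WT. A_67_P03164046 (chr16:32624515-32624574) had 359.5 and 427 in the double deletion, 150 in the maternal deletion, 149 in the paternal deletion, and 138.5 and 145 in WT. At both probes the single deletions lay with WT and the double deletion lay apart. The changes were 1.21 (SE 0.13, adjusted p = 0.0372 in limma) and 1.16 (SE 0.15, adjusted p = 0.0419). RC_A_67_P01240494 in the chromosome 5 block rose by 0.79 (SE 0.10), with 421.5 and 400 in the double deletion against 207 and 202 in WT.

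Among the members that fell, A_67_P19991125 (chr16:32623388-32623447) had 126 and 144.5 in the double deletion, 344 in the maternal deletion, 297 in the paternal deletion, and 332 and 323 in WT. It lies near A_67_P03164046 in the same block and on the same strand, and the 2 probes changed in opposite directions. A_67_P05582231 on chromosome 5, outside the block, fell by 0.84 (SE 0.10), with 204 and 199 in the double deletion against 334 and 340 in WT. RC_A_67_P21976396 at the start of the X block fell by 0.73 (SE 0.10), with 69.5 in both double-deletion samples against 116 and 110.5 in WT. The maternal deletion had 98 and the paternal deletion 94.5 there, also below both WT samples.

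**Figure D2:**
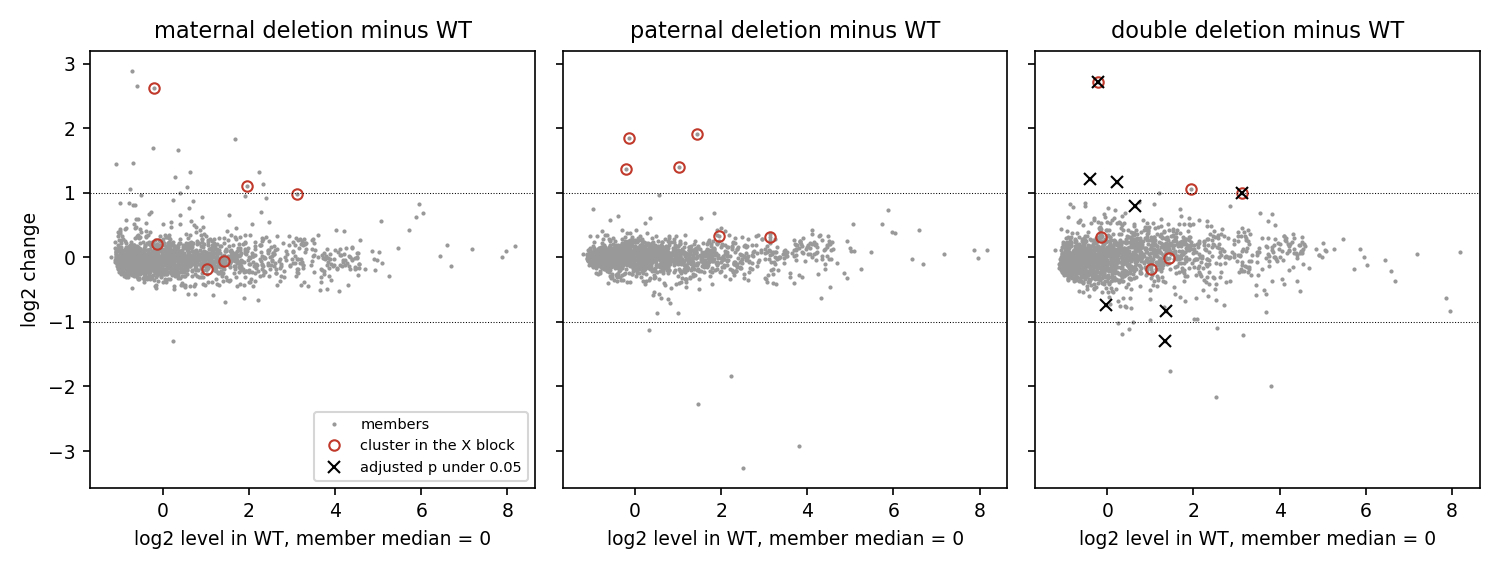
Log2 change of each member against its WT level for the 3 genotypes; crosses mark members with an adjusted p under 0.05 and circles the 6 probes of the cluster in the X block. Most members lie between the dotted lines at -1 and 1. The crosses are found in the double deletion alone, where 8 members passed with p adjusted over all tested probes.

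The pattern that recurred between genotypes was a cluster of 3 neighbouring probe pairs within 284 bases of the X block (chrX:103382074-103382357, mm9). It was picked out after the values were seen. Positions are those of the array design, and whether the signal of these probes in the mutants comes from RNA of chromosome X was not tested. The minus-strand probes were high where the maternal deletion was present, in the maternal and in the double deletion, and the plus-strand probes were high in the paternal deletion. In the paternal deletion RC_A_67_P21976407 was above both WT samples too. RC_A_67_P21976408 was above them by less, with 1474 against 1270.5 and 1150. The third minus-strand probe, RC_A_67_P21976410, was near WT 1, with a log2 level of 2.27 against 2.25 in WT 1 and 1.65 in WT 2. The next probe pairs on either side differed little between genotypes on either strand.

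On the minus strand, RC_A_67_P21976407 (chrX:103382074-103382118) had an intensity of 796 in the maternal deletion, 857.5 and 872 in the double deletion, 284.5 in the paternal deletion, and 97 and 99.5 in WT. RC_A_67_P21976408 (chrX:103382134-103382178) had 2644 in the maternal deletion, 2671.5 and 2735 in the double deletion, 1474 in the paternal deletion, and 1270.5 and 1150 in WT. RC_A_67_P21976410 (chrX:103382313-103382357) had 1258.5 in the maternal deletion, 823 and 1846 in the double deletion, 641 in the paternal deletion, and 649.5 and 410.5 in WT. At the first 2 of these the 3 samples with the maternal deletion lay close together and above all others, and at the third they lay above WT but spread widely. The first changed by 2.71 (SE 0.11, adjusted p = 0.0366 in limma) in the double deletion, by 2.61 (SE 0.13, adjusted p = 0.108) in the maternal deletion and by 1.36 (SE 0.13, adjusted p = 0.12) in the paternal deletion. The second changed by 0.99 in the double deletion (adjusted p = 0.0385) and by 0.98 in the maternal deletion (adjusted p = 0.113). The third changed by 1.05 and 1.10 and passed in neither, with an adjusted p of 0.289 and 0.779.

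On the plus strand, A_67_P21976407 had 1367 in the paternal deletion, 372 in the maternal deletion, 427 and 363 in the double deletion, and 413 and 301 in WT. A_67_P21976408 had 711.5 in the paternal deletion, 254 in the maternal deletion, 246 and 274 in the double deletion, and 228 and 308 in WT. A_67_P21976410 had 426 in the paternal deletion, 136.5 in the maternal deletion, 156 and 153.5 in the double deletion, and 118 and 91 in WT. At all 3 the paternal deletion stood above every other sample, and the other genotypes lay closer to WT. Its changes were 1.91, 1.39 and 1.85, with an adjusted p of 0.12 each in limma.

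The neighbouring pairs differed less. The pair A_67_P21976406, which ends 83 bases before it, holds no member and was dim, with 34 to 50.5 on the plus and 39 to 48 on the minus strand. The pair A_67_P21976411, which begins 335 bases after it, had 181 to 202 on the plus and 63 to 85 on the minus strand over the 6 arrays. Outside the cluster, 2 of the other members of the X block changed by more than 1 in any genotype. Among these was the minus-strand probe RC_A_67_P21976423 (chrX:103383696-103383745), with 253 in the maternal deletion and 59 in the paternal deletion. It had 73.5 and 70 in the double deletion and 62 and 64 in WT, so the double deletion did not share the rise. In polyA RNA of WT the minus-strand probes of the cluster had 37, 352 and 102.5 in sample 1 and 42.5, 426 and 132 in sample 2. Its plus-strand probes had 141, 76 and 45 in sample 1 and 141, 102.5 and 42 in sample 2. The member medians of 44 and 43.2 thus lay below 4 of the 6 probes in both samples. PolyA RNA of the mutants was not measured, so whether the RNA behind the higher signal carries a polyA tail was not tested. Its place of origin was not tested either.

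**Figure D3:**
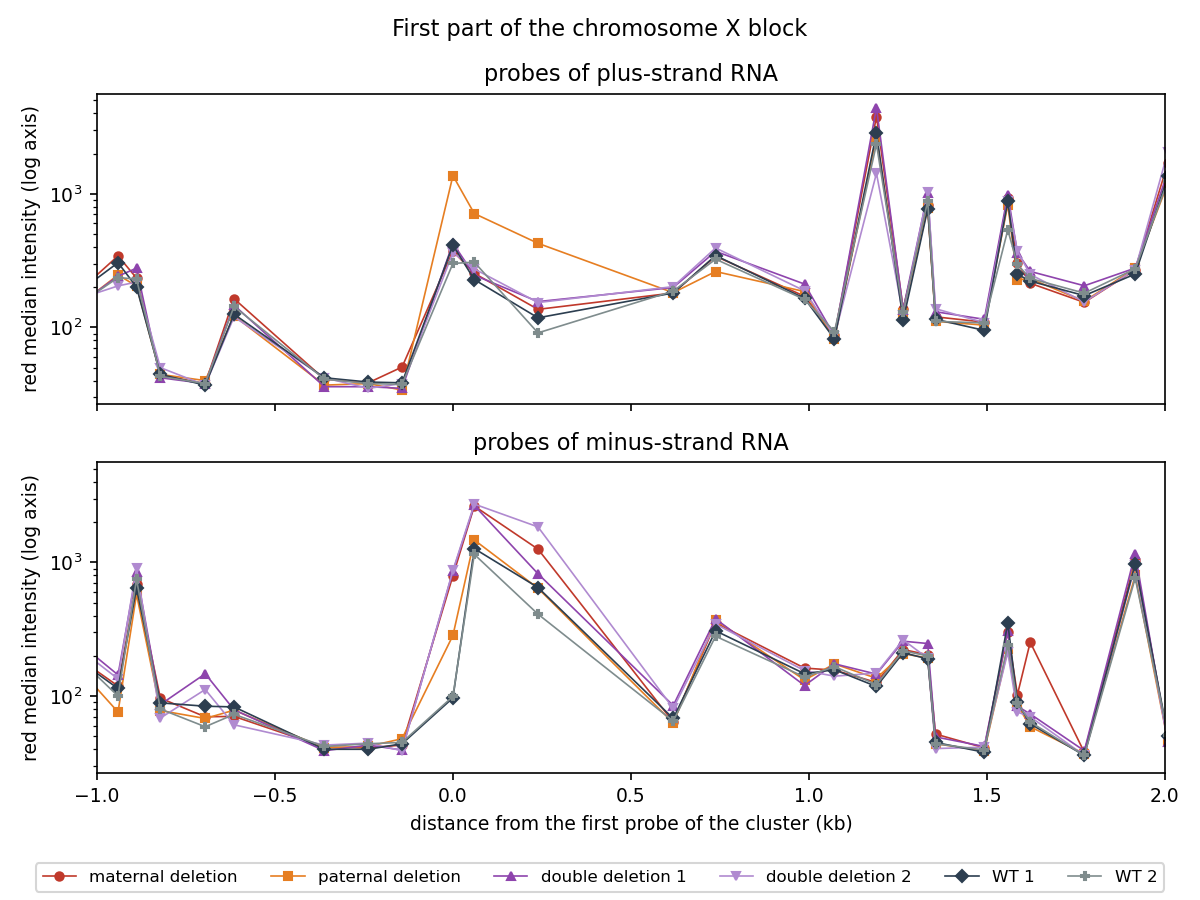
Red median intensity on a log axis for probes of the first part of the X block, members and others, on each total RNA array; the horizontal axis gives distance from the first probe of the cluster in kb. In the 284 bases of the cluster, the paternal deletion stands apart on the plus strand, and the maternal deletion and both double-deletion samples stand apart on the minus strand.

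A further set of members was picked by how widely they differed between the total RNA arrays, some along genotype, as described above, and some within it. Of 1881 members, 99 spanned more than 1 on the log2 scale over the 6 total RNA arrays, 37 more than 1.5 and 16 more than 2. These were picked by their span, so they carry no test. Of the 16, 4 were printed in at least 5 spots. At A_53_P172164 and A_67_P09003505, which are among these 4, the spots of one array disagreed widely, as given below. The 16 include some probes already described.

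A_53_P130489 (chr8:119035167-119035226, 5 spots) had 1811.1 in the maternal deletion, 158.7 in the paternal deletion, 2182.6 and 174 in the double deletion, and 1748.3 and 224.7 in WT. It was thus high in 1 sample and low in the other within both genotypes that have 2 samples, and the maternal deletion was near WT 1 and the paternal deletion near WT 2. The sample labels do not say which WT is the littermate of which deletion. The same held in polyA RNA, with 613.6 in the sample from WT 1 and 54.3 in that from WT 2. Its spots agreed within an SD of 0.04 to 0.24 on each total RNA array. A_67_P06458892 (chr8:28524799-28524858, 5 spots) had 165.5 in the maternal deletion, 86.5 in the paternal deletion, 110 and 61.1 in the double deletion, and 383.4 and 76.8 in WT. WT 1 was the highest of all samples there and double-deletion replicate 2 the lowest. A_67_P09003505 (chr18:53596304-53596363, 5 spots) had 538.4 in the maternal deletion, 57.4 in the paternal deletion, 73.5 and 167.3 in the double deletion, and 543.9 and 263.6 in WT.

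At that last probe the spots of one array themselves spread by an SD of up to 1.09. At A_53_P172164 (chr7:138140740-138140799, 6 spots) they spread by up to 1.28, with 426 to 1272 over the 6 arrays. A_67_P08808429 (chr17:55101076-55101135, 1 spot) had 3042 in the maternal deletion, 3720.5 in the paternal deletion, 309 and 188 in the double deletion, and 2237 and 1969 in WT. Both double-deletion samples were far below all others, but the spot of replicate 1 carried an outlier mark, so the probe was left out of the fit. In the chromosome 6 and 16 blocks, A_67_P14444123 had 4362.5 in double-deletion replicate 2 against 711 in replicate 1, and A_67_P19991123 had 3499 against 796. The other genotypes lay between the 2 double-deletion samples at both probes.

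**Figure D4:**
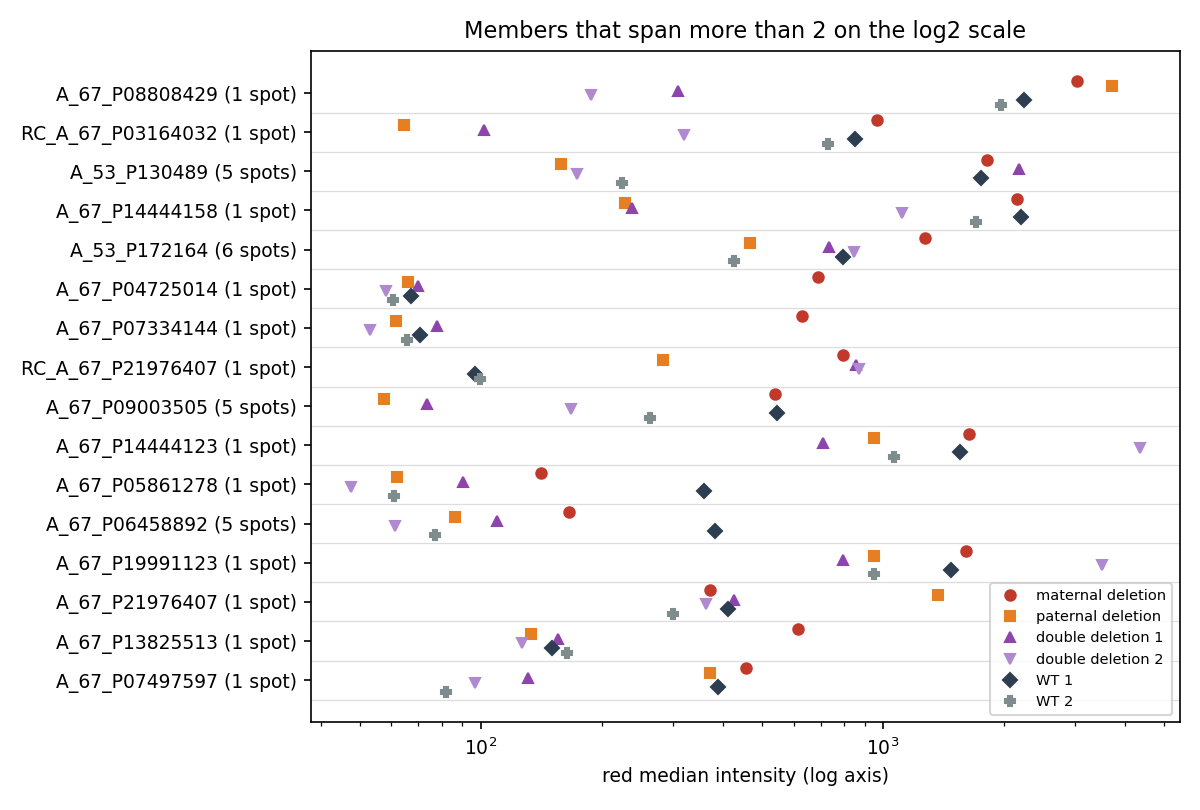
Red median intensity on a log axis of the 16 members that spanned more than 2 on the log2 scale, 1 marker per total RNA array, with the number of spots per array in parentheses. At A_53_P130489 the samples split into a high and a low set within WT and within the double deletion; the value of double-deletion replicate 1 at A_67_P08808429 carried an outlier mark.

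Chromosome 7 was looked at on its own because the deletions lie on it. Its 152 members outside the tiled span had median changes of -0.03 in the maternal, 0.00 in the paternal and -0.04 in the double deletion, beside -0.04, 0.00 and -0.02 over all members. Past 1 were 1, 0 and 1 of them. The 10 members within 5 Mb of the span had no change past 1 and no unadjusted p under 0.05 in any of the 3 genotypes. The nearest below it, RC_A_67_P06207700, lay 1178 kb away and had 265.5 in the maternal deletion, 307 in the paternal deletion, 363 and 369 in the double deletion, and 330.5 and 292 in WT. The nearest above it, A_53_P154740 (chr7:69494333-69494392, 5 spots), lay 1694 kb away and had 16406.9 in the maternal deletion, 11662.8 in the paternal deletion, 5131.4 and 17465.7 in the double deletion, and 11302.2 and 7603.2 in WT. The double-deletion samples lay on both sides of WT at this probe, and its adjusted p was 0.926.

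The 23 members on X outside the block had median changes of -0.01, 0.01 and -0.04 in the maternal, paternal and double deletions, and none was past 1. The 2 members on Y, A_67_P09496950 and A_67_P09497617, had 55.7 to 70.9 and 125.1 to 180.4 over the 6 arrays. By chromosome, the median change of members ran from -0.07 to 0.00 in the maternal deletion, from -0.05 to 0.03 in the paternal deletion and from -0.11 to 0.04 in the double deletion.

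Strand differences were compared within each block. In the chromosome 16 block the plus strand exceeded the minus strand by a median of 1.67 in the maternal deletion, 1.69 in the paternal deletion, 1.76 and 1.85 in the double deletion, and 1.75 and 1.71 in WT, over 86 pairs with both strands detected. In the X block the median was 0.59, 0.63, 0.74 and 0.65, and 0.61 and 0.67, over 91 pairs. In the chromosome 5 block the median was -0.97 in the maternal deletion, -1.04 in the paternal deletion, -1.15 and -1.13 in the double deletion, and -0.73 and -1.21 in WT, so WT enclosed all mutants. In the chromosome 6 block it was -0.08 in the maternal deletion, -0.02 in the paternal deletion, 0.14 and 0.26 in the double deletion, and 0.17 and 0.00 in WT. Over the pairs with both strands detected, the strand difference moved from WT by more than 1 at 6 of 324 pairs in the maternal deletion, 4 of 325 in the paternal deletion and 7 of 325 in the double deletion. The median shift was -0.01, 0.03 and -0.02.

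The second question is how the members read in polyA RNA. The raw signal was far lower on these arrays, for which 750 ng of polyA RNA was labelled in place of 15 µg of total RNA, so polyA and total RNA can be compared only relative to other members. Net intensity, after subtraction of local background, in polyA RNA over total RNA of the same WT sample had a median of 0.135 in pair 1 and 0.145 in pair 2. Of 1881 members, 1066 were well above background on both polyA arrays, 206 on 1 and 609 on neither. Members had to be detected with total RNA and not with polyA RNA, so low values in polyA RNA are in part fixed by their choice. Another 24 probes outside the span were detected on both polyA arrays without being members.

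Relative to the member median, limma called 1292 of 1881 members (68.7%, against 72.4% of all tested probes), 835 higher and 457 lower in polyA RNA (44.4% and 24.3%, against 27.9% and 44.5%). Past 1 on the log2 scale were 183 (9.73%, against 30% of all probes), 48 higher and 135 lower (1.47% and 28.5% of all probes). The count depends on dim probes: 437 of the 609 members that were on neither polyA array well above background were called higher, although their median intensities of 36.2 and 36 in polyA RNA stood at background. Such calls are relative to a median that itself was near background and give no level. Of the 1066 members detected on both polyA arrays, 298 were called higher and 385 lower. With loess scaling the calls over all members were 470 (41.8% of all probes), 244 higher and 226 lower.

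Where the signal was bright, the blocks differed. Of 146 members with a mean WT total RNA intensity of at least 1000, the net ratio had a median of 0.442 in pair 1 and 0.407 in pair 2, with a 10th percentile of 0.109 and a 90th of 0.904. The 51 bright plus-strand members of chromosome 16 had 0.609 and 0.569, and 26 of them were called higher and 3 lower. The 16 bright minus-strand members of chromosome 5 had 0.325 and 0.407. The 7 bright minus-strand members of the X block had 0.161 and 0.155, and 6 of them were called lower. The 11 on its plus strand had 0.234 and 0.207, with 7 called lower and 2 higher. On chromosome 6 the 12 bright plus-strand members had 0.235 and 0.243, with 8 called lower and 2 higher. The 5 on its minus strand had 0.254 and 0.219, with 3 called lower and 2 higher. Over all tested probes 44.5% were called lower and 27.9% higher.

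Along the plus strand of chromosome 16 the median net ratio of polyA to total RNA was higher toward the far end of the block. In successive stretches of 5.5 kb, the median net ratio of bright members was 0.275 (2 members), 0.421 (16), 0.511 (5), 0.709 (7) and 0.828 (21). The other plus-strand members had 0.0707, 0.1, 0.139, 0.222 and 0.158 in the same stretches, so the medians of bright members were higher throughout, while single members of both kinds overlapped. All but the last stretch hold fewer than 20 bright members, and the ratios carry no test of a trend. In the last stretch 28 of 41 members, bright and other, were called higher and 2 lower. In the stretches before it, 4 of 32, 12 of 48, 9 of 44 and 9 of 42 were called higher. Those called lower there were 19, 12, 22 and 11. Over all tested probes 27.9% were called higher and 44.5% lower. Calls of dim members are relative to a median near background and give no level.

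**Figure D5:**
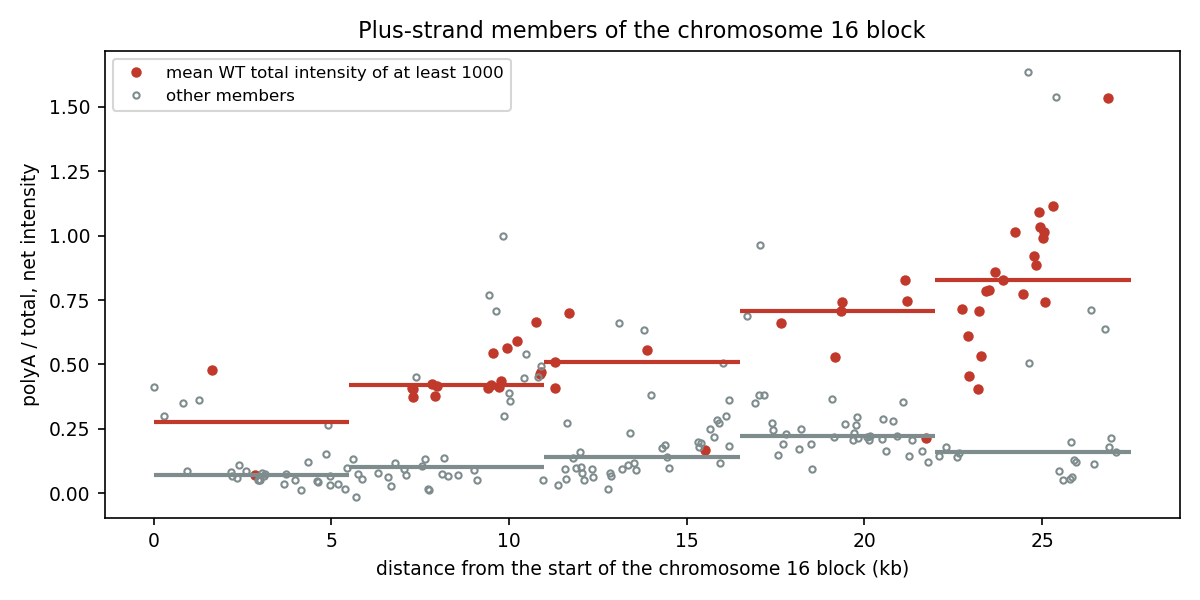
Net intensity in polyA RNA over that in total RNA, mean of the 2 WT pairs, for plus-strand members of the chromosome 16 block by distance from its start in kb; horizontal lines are medians in stretches of 5.5 kb. Medians of bright members (filled) are 0.421 in the second stretch and 0.828 in the fifth, and those of the other members (open) stay at or below 0.222.

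Of the 8 members highest in polyA RNA, 3 lay in the last stretch of the chromosome 16 block. A_67_P19991154 (chr16:32632050-32632109) had 1468 and 1750.5 in polyA RNA, against 953 and 1045.5 in total RNA of the same WT samples. A_67_P21976534 (chrX:103397928-103397976) had 2301 and 1969 in polyA RNA, against 1398 and 1301. A_67_P14444161 (chr6:125117150-125117194) had 944.5 and 1341 in polyA RNA, against 678 and 727. These 3 were brighter in polyA RNA even in raw intensity, in both pairs, and changed by 1.83 (SE 0.14), 1.81 (SE 0.10) and 1.82 (SE 0.20) relative to the member median, with an adjusted p of 0.000729, 0.00031 and 0.0021 in limma.

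Of the 8 members lowest in polyA RNA, 5 stood outside the blocks. A_53_P144482 (chr19:44829969-44830028, 5 spots) had 446 and 272.9 in polyA RNA, against 4839.4 and 3770.8 in total RNA. A_67_P00088474 (chr1:65331687-65331746, 5 spots) had 193.5 and 151.5 in polyA RNA, against 2261.4 and 1926.4. RC_A_67_P21976479 (chrX:103391183-103391240), within the X block, had 278 and 209.5 in polyA RNA, against 2988 and 2938.5. All 3 had a net ratio under 0.1 in both pairs, and changed by -2.37 (SE 0.26), -2.30 (SE 0.14) and -2.35 (SE 0.14), with an adjusted p of 0.00196, 0.000407 and 0.000365 in limma. Over all members, 692 had a net ratio under 0.1 and 209 over 0.5, as the mean of both pairs. Of the 692, 407 were well above background on neither polyA array and 98 on 1, so most of these ratios rest on signal near background. Of the 209, 194 were well above background on both.

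The probe with the largest decrease, A_67_P08808429 on chromosome 17, had 37 and 56 in polyA RNA, against 2237 and 1969 in total RNA, a change of -3.87 (SE 0.19, adjusted p = 0.000215 in limma). RC_A_67_P03164032 and A_67_P14444158, the members lowest in the paternal deletion, were also among the 8 lowest in polyA RNA, at -2.61 (SE 0.10) and -2.50 (SE 0.16). These 3 probes were also among the 16 that spanned more than 2 on the log2 scale over the total RNA arrays.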

How the data were processed

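Cy5-labelled first-strand cDNA of total or polyA RNA was hybridised to 8 arrays, 1 per sample. The deposited scanner files hold red and green intensity of each spot on a linear scale, not normalized between arrays, made with Agilent Feature Extraction 10.7.3.1 on build mm9 per the file headers (10.9 per the submitters' processing notes). The deposited series matrix holds intensity values of 18408 features, none outside the tiled span, and was not used here. Red median intensity was corrected with normexp (offset 50; limma 3.58.1, R 4.3.3). Its log2 values were averaged over the spots of a probe without outlier marks and scaled by the median of the members. Probes that were well above background throughout at least 1 group were fitted with lmFit and eBayes (two-sided, Benjamini-Hochberg over 49384 probes, or 43871 for polyA RNA, threshold 0.05). The 6 total RNA samples formed 4 groups. The 4 WT samples were fitted apart. Of the members, 4 lost their only spot on a total RNA array to an outlier mark and were left out of the genotype fits. The fits were tested on simulated data.

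Samples were grouped by the labels. PolyA RNA came from the same RNA as WT 1 and WT 2, so the numbers pair these samples. Their WT 1 minus WT 2 differences correlated across 1066 members (Pearson r = 0.418, Spearman rho = 0.303), which share probes and are not independent replicates. Up to 10 members were named per genotype: called members beyond the WT range first, then those whose change most exceeded the WT difference. For polyA RNA the 8 highest and 8 lowest, the 10 brightest and the 5 nearest to each end of the span could be named too. Others named, such as the wide-span members and the X cluster, were chosen after their values were seen. The members and lists were chosen with earlier results of these data known. Lists of marker and imprinted genes could not be applied, since the files pair probes with no gene names. The number of arrays limits the precision. Alternatives covered scaling, background correction, signal column, membership, variance prior, samples in the fit and left-out replicates. Members with at least 5 spots were added after seeing the data.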

Additional observations from a re-analysis of the deposited data

How the results depend on the processing

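For the maternal deletion the 0 calls became 4 with scaling by the 75th percentile of all probes, 5 with plain background subtraction, 8 with the scanner's processed signal, 2 with a trended prior, 16 with all 8 arrays in the fit and 15 with the double-deletion samples as separate groups. Leaving out 1 sample gave 0 to 15. For the paternal deletion the counts were 1721, 4, 4, 0, 7 and 8 under the same settings, and 0 to 10 without 1 sample. Scaling by all probes, most of which lie in the tiled span, shifted the median member by 1.26 in the paternal deletion and 0.45 in the double deletion. For the double deletion the 8 calls became 27 with that scaling, 25 with quantile normalization, 13 with the trended prior, 60 with all 8 arrays, 94 with separate groups and 0 over members with at least 5 spots. Leaving out 1 sample gave 0 to 95. The polyA calls (1292) became 770 with quantile normalization and 470 with loess. They were 721 of 1066 (67.6%) on members detected on all 8 arrays and 565 of 941 (60%) on the brighter 0.5 of members. On probes detected on both polyA arrays they were 730 of 1090 (67%). These sets are smaller than the 1881 of the main fit, where the share was 68.7%. With the replicate block the calls were 1290 of 1881. Leaving out 1 sample gave 1035 to 1211. Higher against lower polyA calls were 835 to 457 as reported, 1779 to 26 with the 75th percentile of all probes and 961 to 382 with that of probes outside the span. The ratio of the double deletion's difference to that of WT (1.75) was 1.41 with background subtraction, 1.5 with the processed signal, 1.48 on the brighter 0.5 of members, 2.01 with quantile normalization and 2.04 on members with at least 5 spots. For the paternal deletion (0.896) it was 3.21 with quantile normalization. None of the members listed by rule for a genotype or for polyA RNA changed direction under the settings run; the other members named were not run. The cause of these shifts was not tested. Counts in this section are of members, and the share over all tested probes is given above for some settings only. For the other settings it cannot be told here whether members moved or all probes did. The series matrix alternative was not run, as that table holds no member. Signal near background limits the dimmest members, and most members rest on 1 spot per array.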
